A study of Mus musculus with 8 samples.

Results

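The genes that encode the Wnt ligands, their Frizzled receptors and co-receptors, the secreted Wnt antagonists, and the axins and LEF/TCF factors of the same pathway were followed in whole mouse cornea. They were chosen by gene symbol alone: Wnt1 to Wnt16, Fzd1 to Fzd10, Dkk1 to Dkk4, the Sfrp genes, Frzb, Wif1, Lrp5, Lrp6, Axin1, Axin2, Lef1, Tcf7l1, Tcf7l2 and Lgr6, leaving out any entry at 0 in every library. The rule found 47 genes among 24918 entries, and none of the 47 was at 0 in every library. RNA sequencing was done on 8 libraries, 4 from GRflox mice and 4 from corneaGRKO mice, with replicates numbered 1, 3, 4 and 5 in both groups. GRflox mice (genotype GRloxP/loxP-PAX6+/+) carried the floxed glucocorticoid receptor gene without Cre. The corneaGRKO mice (GRloxP/loxP-PAX6Cre/+) carried the same floxed gene and Cre driven by the P0 promoter of Pax6, a cross made to remove the receptor from the corneal epithelium, and the controls were littermates. All mice were males aged 3 months on a C57BL/6J/FVB background, and each library pooled 4 to 6 corneas. Since the controls had no Cre, what Cre itself does and what the loss of the receptor does cannot be told apart. The comparison asks what loss of the receptor does to the cornea, whose development, inflammation and vessels the study's title names.

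Wnt proteins are secreted lipid-modified ligands. They bind Frizzled receptors and, in the branch that acts through beta-catenin, the co-receptors Lrp5 and Lrp6, which keeps beta-catenin from a destruction complex built on axin and lets it act with LEF/TCF factors on target genes. Dickkopf proteins such as Dkk1 and Dkk2 bind the co-receptors, while Sfrp proteins, Frzb and Wif1 bind the ligands themselves. In mice, loss of Dkk2 turns the corneal epithelium towards an epidermal fate, and in human limbal cells WNT7A acts upstream of PAX6 in corneal differentiation.

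Nr3c1, which encodes the glucocorticoid receptor, had values of 11.07, 11.21, 11.28 and 11.34 in GRflox replicates 1, 3, 4 and 5, and of 10.61, 10.78, 10.83 and 10.78 in the corneaGRKO replicates, on the log2 scale of the deposited table. The gene fell by 0.47 (SE 0.0640, n = 4 per group, limma adjusted p = 0.00767), with the groups apart. Entries whose log2 values averaged 5 or more were tested, and 245 of these 13269 passed an adjusted p of 0.05, which is 1.85%. That number was 95, 114 and 68 without GRflox replicates 1, 3 and 5, 83 and 137 without corneaGRKO replicates 3 and 5, and 574 without corneaGRKO replicate 1. All 12 corneal epithelium markers looked up passed the filter on low values, and their summed log2 level was 21.26 to 21.49 in GRflox and 21.04 to 21.44 in corneaGRKO. The most abundant genes, such as Krt12, weigh most in this sum. With limma 0 of the 12 passed, and 8 had lower means in corneaGRKO. The groups were apart in 3 (25%, against 10.5% of all tested genes), all higher: Krt14 (0.48), Krt15 (0.77) and Clu (0.21). Summed levels of several lists for neighbouring tissue were higher in corneaGRKO. Groups were apart as higher in 3 of 5 photoreceptor and 4 of 4 pigment cell markers tested. They were also apart as higher in 4 of 8 limbal and scleral rim markers and 5 of 6 conjunctival and goblet cell markers. Of all tested genes, 5.89% were apart as higher. The summed level of 11 photoreceptor markers was 8.65 to 8.70 in GRflox and 8.74 to 10.45 in corneaGRKO, highest in replicate 4, and 0 of the 5 tested passed with limma (1 at an unadjusted p under 0.05). That of 8 pigment cell markers was 10.61 to 10.73 and 10.82 to 11.17, and that of 8 markers of the limbal and scleral rim was 14.19 to 14.44 and 14.56 to 15.32, both again highest in corneaGRKO replicate 4. In these lists 1 of 4 and 1 of 8 tested genes passed, as higher, where 1.33% of all tested genes did. Conjunctival and goblet cell markers (9) stood at 15.29 to 15.65 and 15.84 to 16.58, with 3 of 6 tested passing as higher. Those 3 were the keratin genes Krt8, Krt13 and Krt19. The goblet cell gene Agr2 differed by 0.02 (limma adjusted p = 0.784). Muc5ac (0.02), Spdef (0.03) and Tff1 (-0.001) lay under the filter, so the higher sum came from keratins. Lens markers overlapped, at 10.61 to 11.61 and 10.16 to 11.77, and 6 of the 7 tested had lower means in corneaGRKO. No entry of these lists was at 0 in every library. In bulk tissue, fewer cells of a type and less RNA per cell cannot be told apart.

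On the deposited log2 scale the 33 tested Wnt genes differed by -0.36 to 0.29. The transformation behind this scale is not stated. If it shrinks differences, these differences and the changes between groups in the shares given below are too small. Wnt2 was lower in corneaGRKO and was the 1 gene of the 33 tested to pass the threshold, that is 3.03% beside 1.85% of all tested genes (1.33% passed as higher and 0.52% as lower). Dkk3, Wnt11 and Wnt5a had lower means, and Wnt5b and Fzd7 higher means, without passing. The receptors, co-receptors, axins and LEF/TCF factors held 0 genes past the threshold, with 3 of them, all Frizzled genes, at an unadjusted p under 0.05. The median log2 difference of the 33 genes was 0.01 and that of all tested genes was -0.01, and the median size of a difference was 0.07 and 0.05. The groups did not overlap in 5 of the 33 genes (15.2%), against 10.5% of all tested genes. Of the 5, Wnt5b and Fzd7 were higher and Wnt2, Wnt5a and Dkk3 lower, with 5.89% of all tested genes apart as higher and 4.61% as lower. At an unadjusted p under 0.05 there were 9 of the 33, with 16.5% of all tested genes. The 14 other genes lay under the filter and were not tested.

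The proximal promoters of Wnt2 and Wnt11, ligands with lower means, and of the feedback gene Axin2 are shown as examples. Of these genes only Wnt2 passed the threshold. The promoters are RefSeq sequences on build GRCm38.p6 and cover the 250 bases before a RefSeq start, read 5′ to 3′ on the strand of the gene. Capitals mark the TCF/LEF core CTTTGA or the glucocorticoid receptor half-site AGAACA, on either strand.
Wnt2: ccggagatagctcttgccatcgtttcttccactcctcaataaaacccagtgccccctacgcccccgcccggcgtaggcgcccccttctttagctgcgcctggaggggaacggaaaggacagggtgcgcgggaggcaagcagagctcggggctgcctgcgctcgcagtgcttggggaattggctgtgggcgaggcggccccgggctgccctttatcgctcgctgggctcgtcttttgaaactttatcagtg
Wnt11: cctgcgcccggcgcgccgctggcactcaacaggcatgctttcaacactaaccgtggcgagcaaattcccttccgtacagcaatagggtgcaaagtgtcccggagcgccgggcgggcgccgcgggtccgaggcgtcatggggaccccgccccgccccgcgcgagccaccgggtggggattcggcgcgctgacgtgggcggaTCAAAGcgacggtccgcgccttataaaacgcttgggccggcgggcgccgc
Axin2: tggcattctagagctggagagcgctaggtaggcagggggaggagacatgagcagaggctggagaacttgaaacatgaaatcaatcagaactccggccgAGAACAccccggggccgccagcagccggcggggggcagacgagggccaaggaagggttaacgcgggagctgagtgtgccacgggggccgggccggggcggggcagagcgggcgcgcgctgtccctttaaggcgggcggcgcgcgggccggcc
The Wnt2 window (chr6:18030446-18030695, minus strand) held neither run of letters. The Wnt11 window (chr7:98834862-98835111, plus strand) held a TCF/LEF core on the opposite strand, 50 to 45 bases before the start, and a second RefSeq start of Wnt11 had none. In the Axin2 window (chr11:108920099-108920348, plus strand) a glucocorticoid half-site lay 152 to 147 bases before the start. Promoter windows were found for 32 of the 47 genes, 39 windows in all. CTTTGA occurred in 6 of them (15.4%), those of Dkk1, Frzb, Fzd1, Lef1, Wnt11 and Wnt5b, and in 13.8% of the 32851 windows of all genes. AGAACA occurred in 7 (17.9%) and in 16.1% of all windows. The perfect glucocorticoid response palindrome, which contains the half-site, was in 0 of the 39 and in 3 of all windows. These shares are near those of all promoters, but base content was not matched. The median share of G and C was 66.4% in the windows of the Wnt genes and 52.4% in all windows. A match of letters is not a binding site.

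The cornea held a ligand set led by Wnt4 and Wnt7b. To compare genes, the log2 of the longest coding transcript in kilobases (GENCODE M21) was subtracted from each log2 value. On this length-adjusted log2 scale Wnt4, a ligand of kidney and gonad development, stood at 11.14 ± 0.0521 (SD, n = 4) in GRflox, Wnt7b at 10.27 ± 0.0337, Wnt5a at 9.28 ± 0.0464 and Wnt9a at 9.17 ± 0.0787. The ranges of Wnt5a (9.21 to 9.31) and Wnt9a (9.11 to 9.29) overlapped. In the mouse eye, Wnt7b made by macrophages drives the regression of the hyaloid vessels. The log2 values of Wnt4 before the length adjustment were 13.21, 13.19, 13.27 and 13.14 in GRflox replicates 1, 3, 4 and 5, and 13.13, 13.20, 13.17 and 13.10 in the corneaGRKO replicates, with the groups overlapping. Turned back to a linear scale, Wnt4 made up 36.7% ± 1.03 of the summed ligand level in GRflox and 36.8% ± 1.26 in corneaGRKO. Wnt7b made up 20.2% ± 0.349 in GRflox and 19.0% to 20.7% in the corneaGRKO libraries. Both genes led in both groups, and Wnt5a (mean shares of 10.1% and 9.54%) and Wnt9a (9.41% and 10.4%) followed. Wnt5a was above Wnt9a in all 4 GRflox libraries and in corneaGRKO replicate 4. Wnt2 was a minor part of the set, at 2.54% ± 0.261 and 2.05% ± 0.109. Transcript models may differ from those the authors counted, so levels between genes are approximate.

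**Figure D1:**
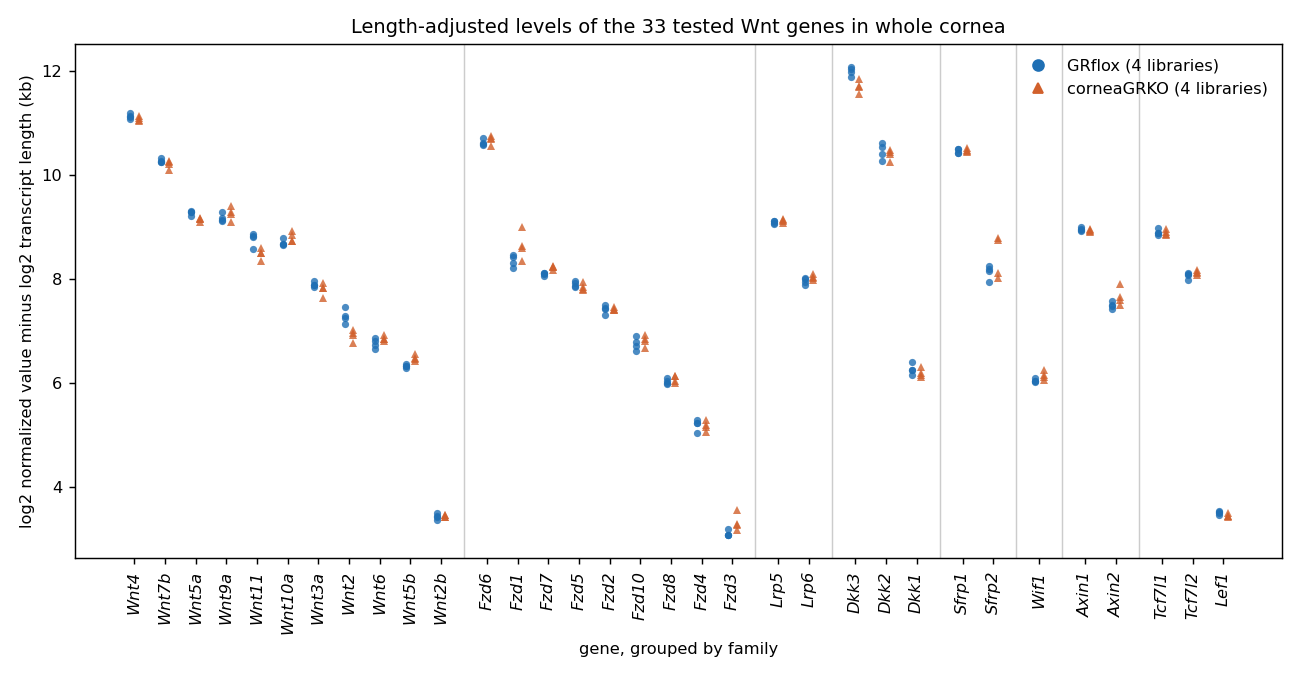
Length-adjusted log2 level (vertical axis) of the 33 tested genes by family (horizontal axis), with a circle for each GRflox and a triangle for each corneaGRKO library. Wnt4 (11.14 in GRflox), Fzd6 (10.62) and Dkk3 (11.99) lead the ligands, receptors and antagonists.

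Wnt2, a ligand needed with Wnt2b for lung specification in mice, was the gene that passed. Its log2 values were 8.45, 8.43, 8.31 and 8.63 in GRflox replicates 1, 3, 4 and 5, and 8.13, 8.18, 7.94 and 8.10 in the corneaGRKO replicates. Every corneaGRKO library lay below every GRflox library, with a gap of 0.12 between the nearest ones. Wnt2 fell by 0.36 (SE 0.0722, limma adjusted p = 0.0369). The direction was the same in all 18 alternatives, with differences of -0.41 to -0.31, and the call held in 11. It was lost without GRflox replicate 1 (adjusted p = 0.108), 3 (0.0865) or 5 (0.0969) and without corneaGRKO replicate 3 (0.0728), 4 (0.0532) or 5 (0.0790). Without corneaGRKO replicates 1 and 4 together the difference was -0.31 (limma adjusted p = 0.101). For its close relative Wnt2b, all 8 libraries lay between 5.09 and 5.23, and the difference was 0.01.

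Wnt11 and Wnt5a, ligands best known for signalling independent of beta-catenin in cell movement and polarity, had lower means in corneaGRKO and did not pass. Wnt11 stood at 10.64, 10.60, 10.36 and 10.59 in GRflox and at 10.38, 10.28, 10.14 and 10.29 in corneaGRKO replicates 1, 3, 4 and 5. GRflox replicate 4 lay below corneaGRKO replicate 1, so the groups overlapped there. The log2 difference was -0.28 (SE 0.0690, limma adjusted p = 0.0776). Wnt11 passed in 4 of 18 alternatives, among them without GRflox replicate 4 (-0.34, limma adjusted p = 0.0211) or corneaGRKO replicate 1 (-0.32, 0.0394). With any other single library left out it did not pass (limma adjusted p up to 0.214). Wnt5a had GRflox values of 12.10, 12.02, 12.10 and 12.12 and corneaGRKO values of 11.90, 11.95, 11.95 and 11.98. The groups were apart, by 0.04, and the difference of -0.14 (SE 0.0362, limma adjusted p = 0.0831) was small. Wnt5b, the paralogue of Wnt5a, stood on the other side: 7.57, 7.57, 7.53 and 7.60 in GRflox against 7.69, 7.73, 7.80 and 7.66 in corneaGRKO. Its groups were apart too, with a log2 difference of 0.15 (SE 0.0412, limma adjusted p = 0.0944).

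The other tested ligands differed less. Wnt10a, a ligand of tooth and hair development, had a difference of 0.12 (SE 0.0520, limma adjusted p = 0.297), and its highest value, 10.23, was in corneaGRKO replicate 4. The abundant ligands Wnt4 (-0.05) and Wnt7b (-0.07), as well as Wnt3a (-0.10), Wnt9a (0.09) and Wnt6 (0.09), had overlapping groups. Of the 11 ligands tested, 5 had higher and 6 had lower means in corneaGRKO, with a median difference of -0.05. Another 8 ligands lay under the filter: Wnt16, highest of them at a mean of 2.21 in GRflox, Wnt10b, Wnt7a, Wnt9b, Wnt8a, Wnt3, Wnt8b and Wnt1, lowest at -3.00. Wnt7a stood at 0.91 to 0.93 in GRflox and 0.91 to 0.97 in corneaGRKO. Values this low were close together between libraries on the deposited scale, and whether they would show a change was not tested.

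**Figure D2:**
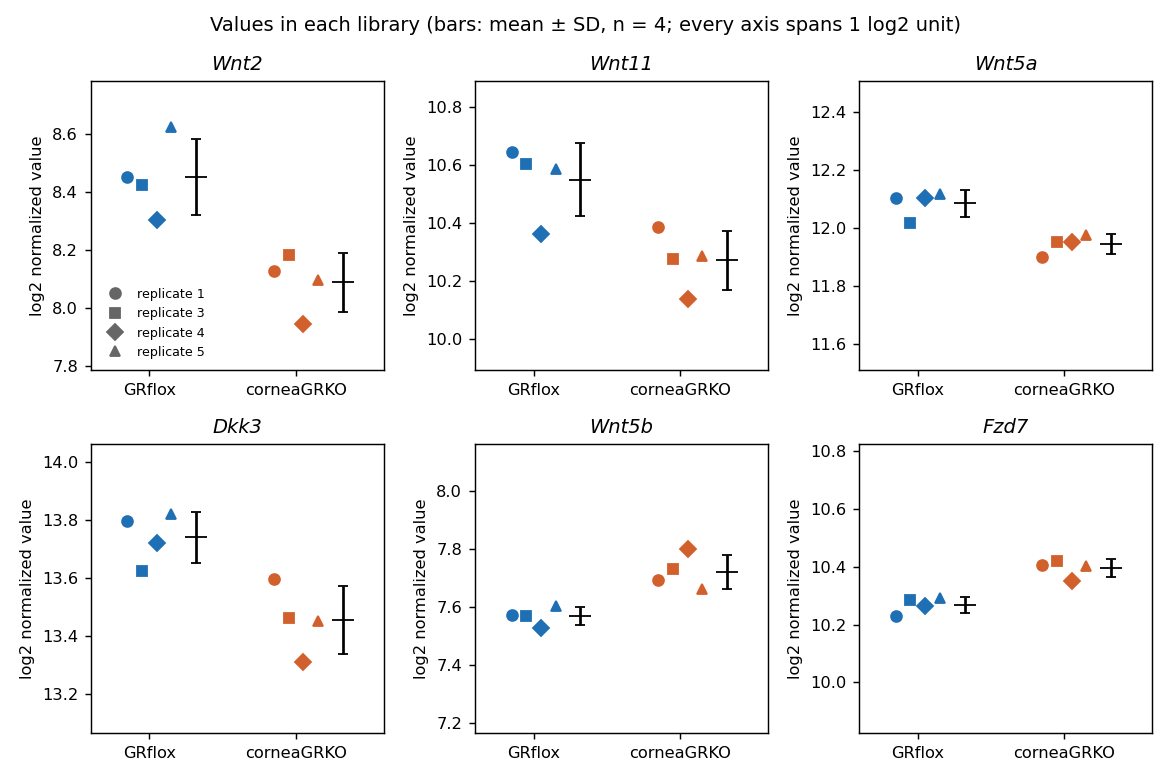
Log2 normalized values (vertical axis, 1 unit in each panel) of the 6 genes with the smallest p-values in GRflox and corneaGRKO libraries (horizontal axis), with a marker shape for each replicate and bars for mean ± SD (n = 4). The groups are apart in all but Wnt11, and corneaGRKO replicate 4 is the lowest library for Wnt2 (7.94), Wnt11 (10.14) and Dkk3 (13.31).

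Among the receptors, Fzd6 led, and its groups overlapped. Its log2 values were 12.68, 12.70, 12.74 and 12.83 in GRflox replicates 1, 3, 4 and 5, and 12.80, 12.82, 12.66 and 12.86 in the corneaGRKO replicates, a difference of 0.05. Its length-adjusted level was 10.62 ± 0.0662 in GRflox, 56.3% ± 1.39 of the summed Frizzled level, and 55.1% ± 2.68 in corneaGRKO. In mice Fzd6 orients hair follicles through planar polarity. Fzd1 followed with 11.6% ± 1.02 and 13.6% ± 2.65, then Fzd7 with 9.69% ± 0.103 in GRflox. Fzd5, which acts in early eye development, made up 8.52% ± 0.138 and 7.75% ± 0.213. Its own log2 difference was -0.06 (SE 0.0450, limma adjusted p = 0.525), with the groups overlapping. Of 9 Frizzled genes tested, 7 had higher and 2 lower means in corneaGRKO, and 0 passed.

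Fzd7 was the Frizzled gene with the clearest separation. It stood at 10.23, 10.28, 10.27 and 10.29 in GRflox and at 10.40, 10.42, 10.35 and 10.40 in corneaGRKO replicates 1, 3, 4 and 5. The groups were apart by 0.06, and the log2 difference was 0.13 (SE 0.0336, limma adjusted p = 0.0924). Fzd1, of the same subfamily, had a larger mean difference of 0.29 (SE 0.115, limma adjusted p = 0.234) but overlapping groups: 10.37, 10.49, 10.52 and 10.28 against 10.41, 10.71, 11.06 and 10.66. Without corneaGRKO replicate 4, which held the 11.06, its difference was 0.18 (limma adjusted p = 0.417). Fzd3, a receptor of axon guidance, had a difference of 0.21 (SE 0.0716, limma adjusted p = 0.168) with its highest value, 7.21, in the same library, and of 0.14 without it. Fzd4, the receptor of Norrin in retinal vessels, differed by -0.02. The third close relative of Fzd1 and Fzd7, Fzd2, differed by 0.01, Fzd8 by 0.05 and Fzd10 by 0.07. Fzd9 lay under the filter, at 1.30 to 1.34 in all 8 libraries.

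Neither co-receptor gene separated the groups. Lrp5 stood between 11.43 and 11.52 in the 8 libraries (difference 0.02) and Lrp6 between 11.11 and 11.33 (difference 0.08, SE 0.0416, limma adjusted p = 0.393). Lgr6, a receptor of R-spondins, lay under the filter at 3.57 to 3.70.

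Dkk3 was the most abundant of the secreted antagonist genes and the one with the largest mean decrease among them. It encodes a divergent Dickkopf protein that, unlike Dkk1 and Dkk2, is not known as a strong co-receptor antagonist. Its log2 values were 13.80, 13.62, 13.72 and 13.82 in GRflox replicates 1, 3, 4 and 5, and 13.60, 13.46, 13.31 and 13.45 in the corneaGRKO replicates. The groups were apart by 0.03, and the difference of -0.29 (SE 0.0648, limma adjusted p = 0.0553) missed the threshold. Dkk3 passed in 3 of 18 alternatives, among them without corneaGRKO replicate 1 (-0.33, limma adjusted p = 0.0207). It stood at -0.24 (0.0811) without corneaGRKO replicate 4. Its share of the summed length-adjusted antagonist level was 55.6% ± 1.97 in GRflox and 50.5% ± 3.19 in corneaGRKO.

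The other antagonists did not separate the groups, apart from Frzb. Dkk2 ran from 12.16 to 12.51 in GRflox and from 12.14 to 12.36 in corneaGRKO, a difference of -0.06 (SE 0.0747, limma adjusted p = 0.685). Dkk1 had a difference of -0.07 and Sfrp1 of 0.01. Sfrp1 lay between 12.55 and 12.63 in GRflox and between 12.56 and 12.64 in corneaGRKO. Sfrp1 and Dkk2 had about equal shares of the antagonist level in GRflox, 19.2% ± 0.455 and 19.2% ± 1.70. Sfrp2 was split within corneaGRKO: replicates 3 and 4 stood at 9.75 and 9.79, replicates 1 and 5 at 9.11 and 9.03, and GRflox ran from 8.94 to 9.25. Its mean difference of 0.28 (SE 0.168, limma adjusted p = 0.428) was thus carried by replicates 3 and 4. These also held the highest summed levels of limbal and scleral rim markers (14.91 and 15.32, against 14.56 and 14.77 in replicates 1 and 5). Within corneaGRKO they were highest for conjunctival, keratocyte, macrophage and vessel markers too. For photoreceptor and pigment markers, replicates 4 and 1 were highest. The part of rim tissue, or of any of these cell types, in the Sfrp2 result was not tested. Wif1 had a difference of 0.09 (SE 0.0457, limma adjusted p = 0.337). Frzb, under the filter, ran from 4.36 to 4.44 in GRflox and from 4.46 to 4.54 in corneaGRKO, so its groups were apart, and with no filter it did not pass (difference 0.08, limma adjusted p = 0.163). Sfrp4, Sfrp5 and Dkk4 were also under the filter.

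**Figure D3:**
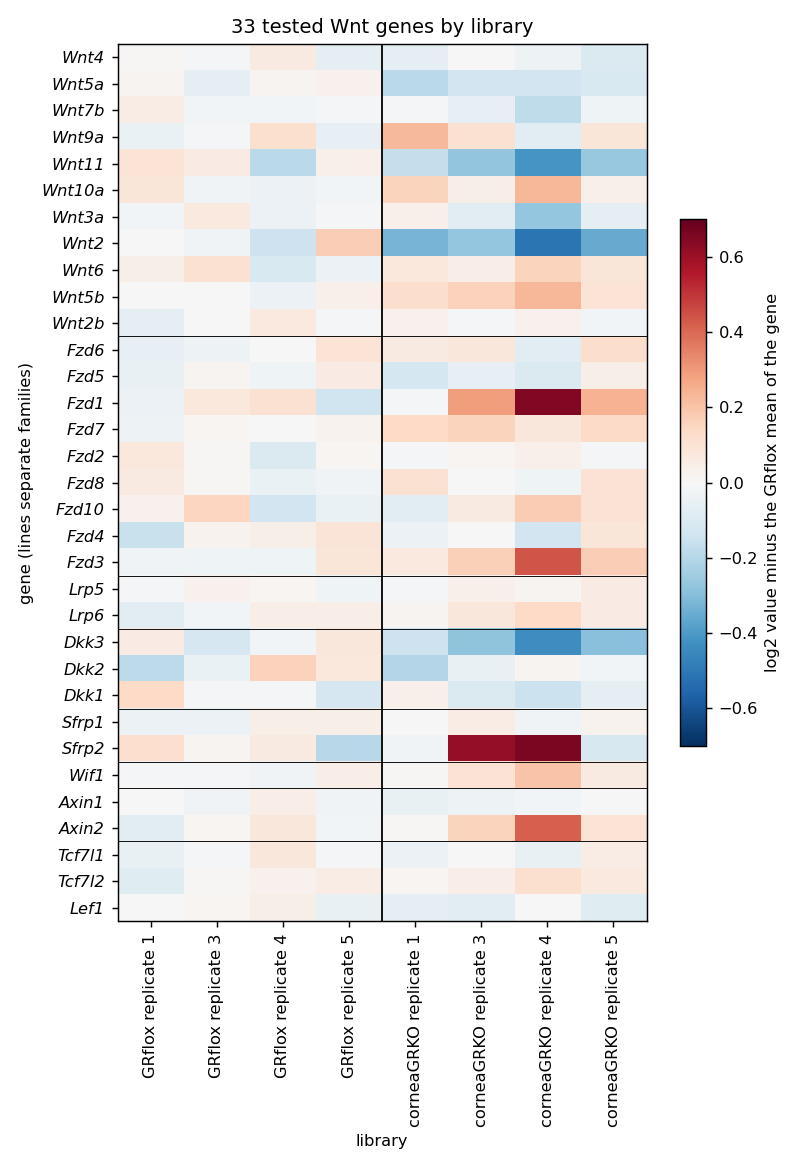
Difference of each library (columns) from the GRflox mean of the gene, on the log2 scale, for the 33 tested genes (rows), with lines between families and red for higher values. Strong colours stand in corneaGRKO replicate 4, where Fzd1 (11.06), Sfrp2 (9.79) and Axin2 (9.998) are highest and Wnt2 (7.94) and Dkk3 (13.31) lowest. Sfrp2 is also strong in corneaGRKO replicate 3 (9.75).

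Within the cell, the axin and LEF/TCF genes held 0 calls. Axin2, a target of beta-catenin signalling that feeds back on it, stood at 9.51, 9.59, 9.66 and 9.56 in GRflox and at 9.59, 9.73, 9.998 and 9.67 in corneaGRKO replicates 1, 3, 4 and 5. The corneaGRKO range reached higher, through replicate 4, but the groups overlapped. The log2 difference was 0.17 (SE 0.0788, limma adjusted p = 0.320) and 0.09 (0.596) without corneaGRKO replicate 4. Axin1, the constant scaffold of the destruction complex, differed by -0.03. Tcf7l1, mainly a repressor, differed by -0.01, Tcf7l2 by 0.06 and Lef1, low at 5.21 to 5.34, by -0.05.

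Library by library, corneaGRKO replicate 4 was the highest or the lowest of its group in 27 of the 33 genes (81.8%). The share over all tested genes was 61.4%. Within corneaGRKO it had the highest summed photoreceptor, pigment, rim and conjunctival marker levels, and also the highest keratocyte, macrophage, vessel and nerve marker levels. Its summed levels of corneal epithelium (21.04) and lens (10.16) markers were the lowest. GRflox replicate 5 also exceeded its share, at an extreme of its group in 19 genes (57.6%, against 38.6%). GRflox replicate 4 was at an extreme in 20 genes (60.6%, against 68.2%) and corneaGRKO replicate 1 in 20 (60.6%, against 67.9%). The part of neighbouring tissue, or of the mix of corneal cell types, in the Wnt gene values was not tested. Among stromal keratocyte markers, 3 of the 10 tested, Col5a1, Col6a2 and Kera, passed as lower and 0 as higher. Means were lower in 7 of the 10 and higher in 3, and Ptgds (0.38) had its groups apart as higher. The summed level of the list was 18.54 to 18.63 in GRflox and 18.41 to 18.66 in corneaGRKO. Of 9 macrophage and dendritic markers, 7 passed as higher, and all 9 had higher means. Of all tested genes, 1.33% passed as higher and 0.52% as lower.

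**Figure D4:**
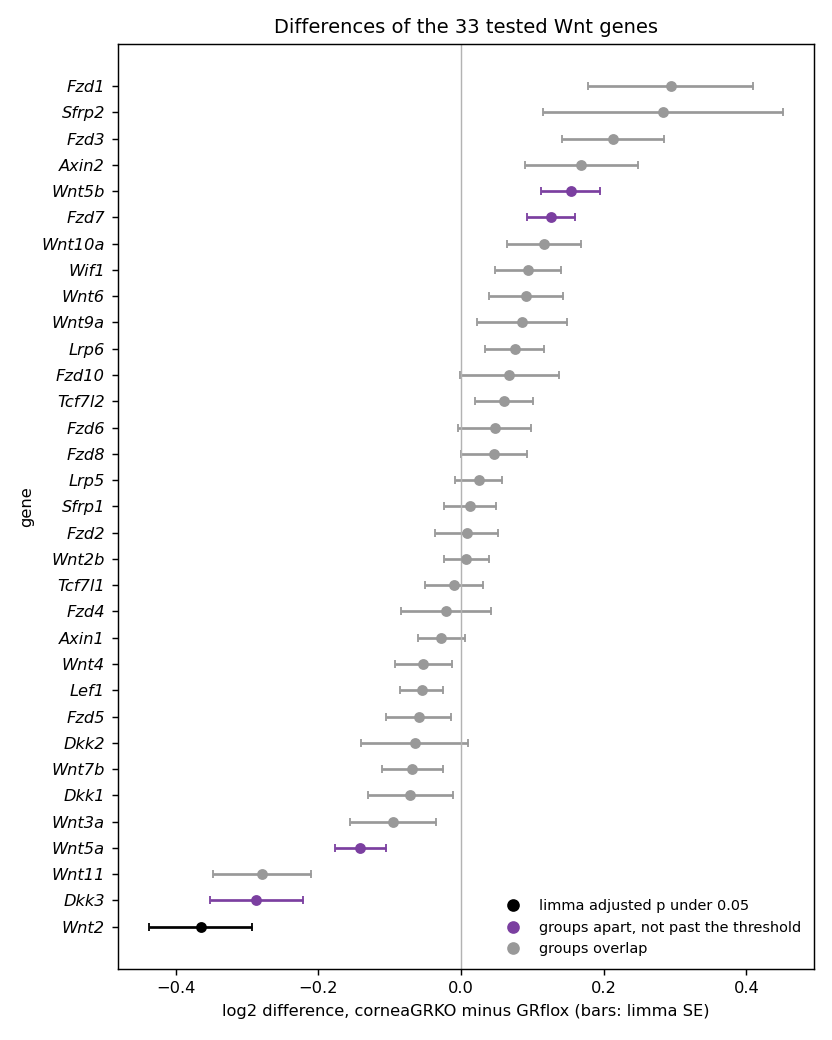
Log2 difference of corneaGRKO from GRflox (horizontal axis, bars limma SE) for the 33 tested genes (vertical axis), ordered by size. Wnt2 (-0.36) is in black as the gene past the threshold, and Dkk3 (-0.29), Wnt5a (-0.14), Fzd7 (0.13) and Wnt5b (0.15) are in purple as genes with groups apart.

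The rest of the pathway was given by 78 further genes, of which 67 were tested and 0 passed with limma, 14 of them at an unadjusted p under 0.05, where 16.5% of all tested genes lay. Their median log2 difference was 0.02, and the groups were apart in 11 (16.4%, against 10.5% of all tested genes), 5 higher (Sostdc1, Cpz, Gsk3b, Nkd2 and Tle1) and 6 lower (Notum, Kremen2, Dvl1, Gsk3a, Csnk1d and Cd44). Among 10 tested genes of ligand export and extracellular control, Sostdc1, a secreted antagonist of Wnt and BMP signalling, had the smallest adjusted p. Its values were 5.60, 5.67, 5.69 and 5.58 in GRflox and 5.78, 5.85, 6.06 and 5.80 in corneaGRKO, with a difference of 0.24 (SE 0.0581, limma adjusted p = 0.0743). The groups were apart. Sostdc1 passed in 4 of 17 alternatives, among them without corneaGRKO replicate 1 (limma adjusted p = 0.0376) or 4 (0.0452). Notum, whose product removes the lipid from Wnt proteins, differed by -0.12, Kremen2, a receptor for Dickkopf proteins, by -0.13, and Cpz by 0.23. Wls, the carrier that brings Wnt proteins to the cell surface, differed by 0.05. Among 14 other receptor and polarity genes, the adhesion receptor Celsr2 came first, with a difference of 0.08 (limma adjusted p = 0.328).

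In the 23 intracellular genes the kinase gene Gsk3b, part of the destruction complex, differed by 0.14 (SE 0.0366, limma adjusted p = 0.0959) with groups apart, and its paralogue Gsk3a by -0.09 in the other direction, also with groups apart. Nkd2, which encodes a Dishevelled-binding protein, differed by 0.33 (SE 0.0968, limma adjusted p = 0.122) with groups apart. It passed in 2 of 18 alternatives, among them without corneaGRKO replicate 1 (0.0458). Dvl1, which encodes a Dishevelled protein, differed by -0.13 and the kinase gene Csnk1d by -0.03. Ctnnb1, which encodes beta-catenin itself, differed by 0.03. Of 8 nuclear cofactors, the co-repressor gene Tle2 differed by 0.25 (SE 0.0690, limma adjusted p = 0.105). Tle2 passed in 4 of 18 alternatives, among them without corneaGRKO replicate 1 (0.0202) or without replicates 1 and 4 together (0.0477). Of 12 target genes tested, Jun differed by 0.38 (SE 0.111, limma adjusted p = 0.121): GRflox stood at 11.62, 11.65, 12.08 and 11.53 and corneaGRKO at 12.06, 12.11, 12.28 and 11.95. GRflox replicate 4 stood with the corneaGRKO libraries, and without it Jun passed (0.50, limma adjusted p = 0.0122). Jun passed in 3 of 18 alternatives, this one included. The targets Ccnd1 (0.08), Myc (0.13) and Cd44 (-0.13) did not pass, nor did the co-repressor gene Tle1 (0.17).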

How the data were processed

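RNA of 8 whole-cornea libraries was read as 75 nt pairs, per the labels. The authors deposited 1 table of normalized expression on a log2 scale, made with Bowtie2, HTSeq and DESeq2 per the submitters' processing notes. Which tool versions and which transformation were used is not given in the sources used here. Genome build mm9 stands in those notes and mm10 in the labels' extraction protocol, so the only coordinates printed are those of RefSeq promoters on GRCm38.p6. The depth of each library is unknown, so no counting interval is given. The table had 0 value columns beyond the 8 libraries. Groups and replicate numbers came from the titles. Nothing says more about the pools than their number of corneas, so p-values measure the spread between these libraries.

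The test was limma 3.58.1 (R 4.3.3), two-sided, on genotype alone with a mean-variance trend. It ran on the 13269 entries whose log2 values averaged 5 or more, and p-values were adjusted over these by Benjamini and Hochberg. Differences are corneaGRKO minus GRflox on the deposited scale. Summed marker levels are the log2 of the sum of linear values. Wnt genes are named where they passed, had groups apart or differed by at least 0.3, together with the genes just outside and the most abundant of each family. Of the other pathway genes, the one with the smallest adjusted p of each list is named. Axin2, Sfrp2, Fzd3, Fzd1, Wnt10a and Nkd2 were given in full, and the other pathway genes with groups apart were named, after their values were seen. The genes and lists were chosen with earlier results of these data known. The procedure was tested on simulated data with 200 changed genes. It recovered 64.2% of log2 changes of 0.25 and 97% of those of 0.5, and 7.94% of its calls were false. The simulated noise was independent between genes, without effects shared across a library, so these rates may not hold for the real libraries. No 2 libraries were duplicates (smallest median absolute difference 0.0427). The 18 alternatives were the replicate block, 2 other filters, quantile normalization, median centring, a pseudocount of 16, no trend, library weights, robust moderation, each library left out, and corneaGRKO replicates 1 and 4 left out together.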

Additional observations from a re-analysis of the deposited data

Results flagged for a closer look

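In 80 groups of 4 libraries (40 genes), 4 held a library whose gap to the nearest of the others was a larger part of the group's range than Dixon's critical value for 4, and chance gives about 1 in 20. All 4 were GRflox libraries. Fzd3 in replicate 5 stood at 6.85, with the others at 6.74 (ratio 0.951). Wnt7b was highest in replicate 1, at 12.09 against 12.02 to 12.03 in the others (0.865). Wnt10a was also highest in replicate 1, at 10.08 against 9.96 to 9.98 (0.834). Wnt5a was lowest in replicate 3, at 12.02 against 12.10 to 12.12 (0.851), and that library set the gap between the groups of this gene.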

How the results depend on the processing

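In all 18 alternatives (17 for Fzd3, Sostdc1, Notum and Kremen2, which a minimum mean of 7 removed) the 29 genes followed kept their direction, and Nr3c1 stayed past the threshold. The number of genes called among all tested was 245, 663 with the replicate block, 1980 with library weights and 68 to 574 with a library left out. The number among the Wnt genes was 1, 3 with the replicate block (Wnt2, Wnt11 and Dkk3), 8 with library weights, 0 to 3 with a library left out, and 0 without corneaGRKO replicates 1 and 4 together. Library weights added Fzd1, Fzd3, Fzd7, Wnt5a and Wnt5b to those 3, and called as many higher as lower. Among the other pathway genes it was 0, 3 with the replicate block (Jun, Sostdc1 and Tle2), 6 with library weights, 0 to 5 with a library left out and 1 without corneaGRKO replicates 1 and 4 together. The cause was not tested. The filter, the 3 scalings, the trend and robust moderation left the calls of Wnt genes at 1.

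The labels do not say whether a replicate number marks a shared litter or day. Same-numbered libraries had correlations of their deviations of 0.514, -0.284, 0.259 and 0.0611 for replicates 1, 3, 4 and 5. The corneaGRKO replicates 1 and 4 correlated best with their own number and replicates 3 and 5 with GRflox replicate 4, so the numbers were not taken as pairs. Depth limits cannot be given without counts.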
